A study of Homo sapiens with 4 samples.

Results

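The genes described here serve the cell's use of glucose and its answer to low oxygen, and they were measured in U2OS cells, an established human osteosarcoma line, after knockdown of PURB, a protein that binds single-stranded nucleic acids. They were chosen as a list of 42 symbols out of the 39519 genes in the table of TPM values (transcript abundance scaled for transcript length and library total), and all 42 were found. By role they were 24 glycolytic enzymes, regulators and transporters, 14 other targets of the hypoxia-inducible factors (HIF) and 4 HIF factors. RNA came from sh-PURB cells, in which a doxycycline-inducible short hairpin RNA against PURB was switched on with 5 µg/ml doxycycline for 72 h (n = 2 libraries), and from sh-NC control cells that received DMSO (n = 2 libraries). Both groups are the same line in the same serum-containing medium, and no label mentions low oxygen. Doxycycline was given to every sh-PURB library and to neither sh-NC library; effects of the drug and of the knockdown cannot be told apart. The labels name neither the hairpin sequence nor separate cultures, so the p-values rest on library-to-library spread that may be technical. The libraries are bulk RNA, in which fewer cells that express a gene and less RNA per cell cannot be told apart.

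HIF is a pair of proteins, an oxygen-labile alpha subunit (HIF1A or EPAS1) and the stable partner ARNT. With oxygen present, prolyl hydroxylases of the EGLN family mark the alpha subunit and the VHL protein has it degraded, so much of HIF control lies in protein and not in mRNA. Without oxygen HIF binds a short DNA element and raises genes of glucose uptake, glycolysis, acid handling and mitochondrial removal, several of which tumour lines also use in normal air.

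The files and libraries were checked first. PURB mRNA, the target of the hairpin, had 2.46 and 2.69 TPM in sh-PURB, against 5.29 and 6.55 TPM in sh-NC. The sh-PURB mean was 43.5% of the sh-NC mean, with a limma adjusted p of 0.102 over all tested genes (0.0309 to 0.457 over the alternatives), and a two-sided exact permutation p of 0.333, which no comparison of 2 with 2 libraries can go below. Of 10 osteoblast lineage markers 5 reached 1 TPM in every library, SPARC among them at 220 to 262 TPM. ALPL lay under 0.24 TPM, SP7 and IBSP were at or near 0, and the summed level of the list was 240 and 295 TPM in sh-PURB, against 307 and 312 TPM in sh-NC. SPP1, the osteopontin gene, was the 1 marker of that list called lower by limma, at 6.59 and 5.80 TPM in sh-PURB, against 33.8 and 30.7 TPM in sh-NC. Of 11 markers of blood, epithelium, endothelium, liver, muscle and glia, KRT18 held 84.2 to 114 TPM and no other passed 4.67 TPM. Their sum was 122 and 106 TPM in sh-PURB, against 105 and 93.7 TPM in sh-NC, and their part in the results below was not tested. Read depth cannot be had from TPM and is unknown for these libraries. A group of 5 structured noncoding RNAs (RMRP, RPPH1, RN7SK, RN7SL1 and RN7SL2) held 63.2% to 65.2% of TPM in sh-PURB and 59.4% to 62.2% in sh-NC.

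Hypoxia and glycolysis genes lay mostly lower in sh-PURB cells, and NDRG1 was the single member that fell past the threshold. All 42 passed the filter on low values (at least 1 TPM in at least 2 libraries). The log2(TPM + 1) difference, sh-PURB minus sh-NC, was below 0 for 35 members and had a median of -0.35, against 58.4% below 0 and a median of -0.06 over all 14269 tested genes. In 25 members both sh-PURB libraries lay below both sh-NC libraries, where 29.3% of all tested genes did so, and in 3 members they lay above, where 18.6% of all genes did. At an unadjusted limma p under 0.05, 22 members were lower and 1 was higher, beside 9.53% and 5.77% of all tested genes. After Benjamini-Hochberg adjustment over all genes limma called 1 member lower and 0 higher, beside 0.203% and 0.0841% of all genes. The list was chosen with earlier results of these data known, so these counts describe it and are no test of it. CA9, ANKRD37 and ADM were under 1 TPM in both sh-PURB libraries and passed the filter only through sh-NC. Without those 3 there were 19 lower members and 1 higher at an unadjusted limma p under 0.05, with a median log2 difference of -0.32. EGLN3 and PDK3 reached 1 TPM in only 1 sh-PURB library and also needed sh-NC to pass. Both stay in these counts, EGLN3 among the 19.

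The count of calls depended on the setting. Shares of all tested genes at an unadjusted p are given for the main setting only. In a fit of protein-coding genes only, scaled to the same total, limma called 11 members lower and 0 higher (2.16% and 1.33% of 11925 genes): NDRG1, ALDOC, CA9, CA12, PFKFB4, BNIP3L, EGLN3, SLC2A3, PGK1, TPI1 and ADM. Of these, CA9 and ADM passed the filter only through sh-NC, and EGLN3 also needed sh-NC to pass. A call of lower was favoured in advance for such genes. Leaving out any library gave 0 calls in limma with 13 to 20 members at an unadjusted p under 0.05, the count of 13 being that without sh-NC replicate 2, but such a fit has 1 residual degree of freedom.

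**Figure D1:**
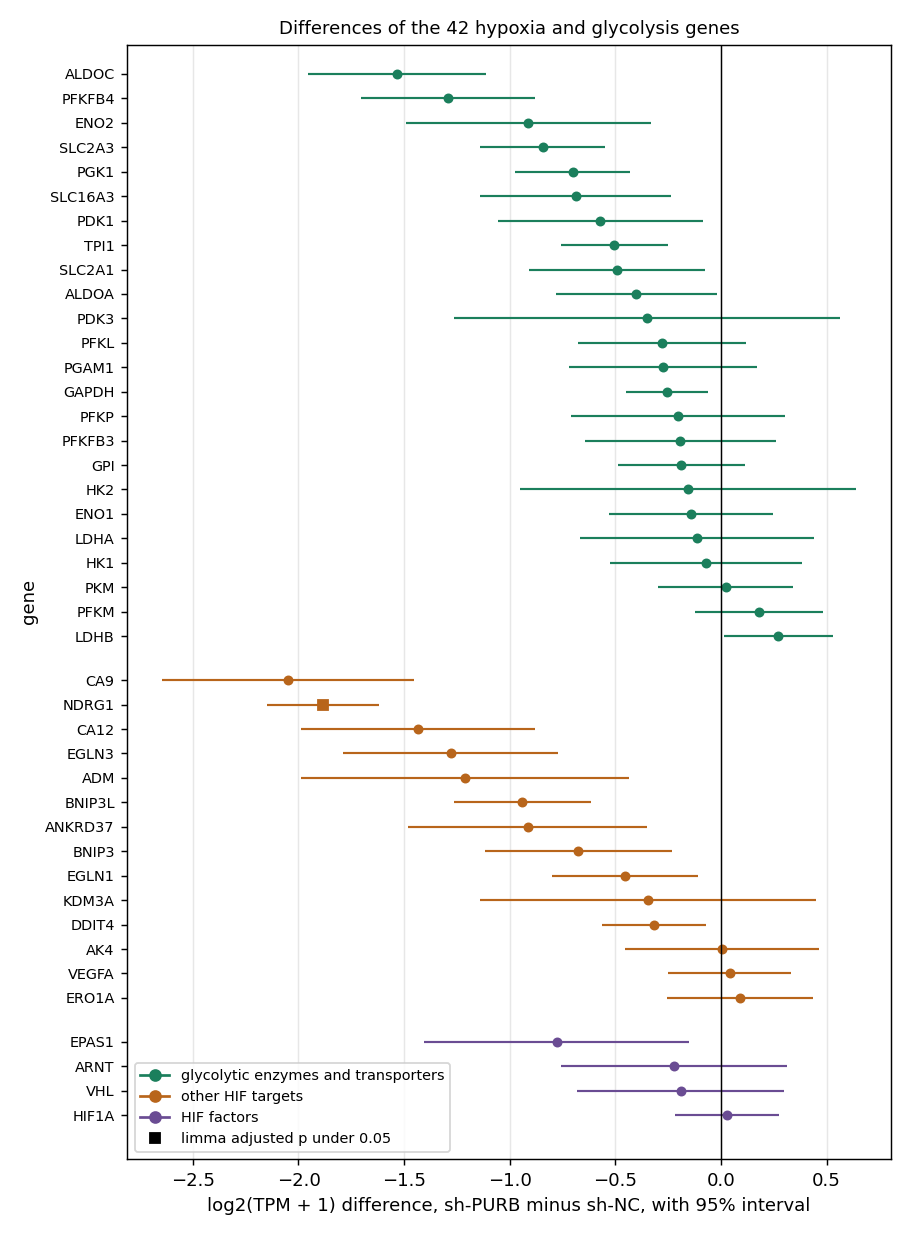
Log2(TPM + 1) difference, sh-PURB minus sh-NC, of each of the 42 genes with its 95% interval from limma, grouped by role; the square marks a limma adjusted p under 0.05. Most points lie left of 0, the HIF targets CA9 (-2.05) and NDRG1 (-1.88) farthest, while LDHB (0.27) is the one whose interval lies above 0.

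Among HIF targets outside glycolysis, 10 of 14 had both sh-PURB libraries below both sh-NC libraries, beside 29.3% of all tested genes, and their median log2 difference was -0.80. Without CA9, ANKRD37 and ADM, which passed the filter only through sh-NC, it was 7 of 11 with a median of -0.46. EGLN3 reached 1 TPM in only 1 sh-PURB library, so it also needed sh-NC to pass, and it is still among the 7. NDRG1, a stress-responsive gene of the NDRG family (chromosome 8, 133237171 to 133302022, minus strand, GRCh38), stood at 15.9 and 15.1 TPM in sh-PURB, against 60.5 and 59.1 TPM in sh-NC. The gap between the groups was far wider than that between libraries of a group. NDRG1 fell 3.86-fold, with a log2 difference of -1.88 (SE 0.10) and a limma adjusted p of 0.0374 (0.00169 with protein-coding genes alone to 0.243 without sh-PURB replicate 1).

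Both carbonic anhydrases of the tumour cell surface, which hydrate carbon dioxide and so help to regulate pH outside the cell, were near the bottom of their range in sh-PURB. CA9 (chromosome 9, 35673856 to 35681159, plus strand) was listed at 0 and 0.151 TPM in sh-PURB, against 3.91 and 3.02 TPM in sh-NC. A listed 0 can be a failed estimate, so no fold is given, and the limma adjusted p was 0.0541. ARHGEF39, whose exons overlap those of CA9 on the other strand, had 8.83 and 12.4 TPM in sh-PURB, against 14.8 and 14.1 TPM in sh-NC, and whether reads were counted by strand is not known here. CA12 had 2.20 and 2.72 TPM in sh-PURB, against 6.98 and 9.89 TPM in sh-NC, a mean at 29.2% of sh-NC (limma adjusted p = 0.0823). The groups overlapped for neither gene.

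The mitophagy receptors BNIP3 and BNIP3L, which mark mitochondria for removal, were lower in each sh-PURB library. BNIP3L had 24.2 and 28.96 TPM in sh-PURB, against 51.0 and 52.6 TPM in sh-NC (51.4% of the sh-NC mean, limma adjusted p = 0.0691). BNIP3 itself had 9.81 and 8.36 TPM in sh-PURB, against 13.3 and 16.99 TPM in sh-NC (limma adjusted p = 0.177). The BNIP3 value is uncertain, because 39 rows of BNIP3 pseudogenes went the other way, with a sum of 13.5 and 7.19 TPM in sh-PURB against 2.25 and 3.003 TPM in sh-NC. The pseudogene BNIP3P4 held most of that sum, at 8.79 and 5.21 TPM in sh-PURB and 1.60 and 2.06 TPM in sh-NC. BNIP3 and its pseudogene rows together gave 23.3 and 15.6 TPM in sh-PURB, against 15.6 and 19.99 TPM in sh-NC, so that the groups overlapped. How reads were split between these copies cannot be seen in TPM values.

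EGLN1 and EGLN3, prolyl hydroxylases that restrain HIF, are themselves HIF targets. EGLN3 had 0.765 and 1.13 TPM in sh-PURB, against 3.75 and 3.67 TPM in sh-NC, a mean at 25.5% of sh-NC (limma adjusted p = 0.0831). EGLN1, the main oxygen sensor of the family, had 6.59 and 7.17 TPM in sh-PURB, against 9.51 and 10.1 TPM in sh-NC (70.2%, limma adjusted p = 0.227). Neither gene's groups overlapped. ADM, which encodes the vasodilator peptide adrenomedullin, had 0.311 and 0.824 TPM in sh-PURB, against 1.98 and 3.31 TPM in sh-NC. The ankyrin repeat gene ANKRD37 had 0.828 and 0.513 TPM in sh-PURB, against 2.24 and 2.03 TPM in sh-NC. UFSP2, whose exons overlap those of ANKRD37 on the other strand over 909 bases, had 7.98 and 8.24 TPM in sh-PURB, against 9.58 and 10.7 TPM in sh-NC, so the ANKRD37 value is uncertain. DDIT4, an inhibitor of mTORC1 signalling, had 45.6 and 45.2 TPM in sh-PURB, against 55.6 and 58.1 TPM in sh-NC (79.9%). ADM, ANKRD37 and DDIT4 had non-overlapping groups and limma adjusted p-values of 0.159 to 0.231.

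Not every HIF target lay lower. VEGFA, the angiogenic growth factor, had 15.5 and 15.4 TPM in sh-PURB, against 14.9 and 15.1 TPM in sh-NC. Its log2 difference was 0.04 with a 95% interval of -0.25 to 0.33, which leaves out a difference of the size seen for NDRG1. ERO1A, an oxidase of the endoplasmic reticulum, had 45.1 and 37.0 TPM in sh-PURB, against 39.5 and 37.1 TPM in sh-NC. AK4, a mitochondrial adenylate kinase, had 14.0 and 10.5 TPM in sh-PURB, against 11.4 and 12.7 TPM in sh-NC. The histone demethylase KDM3A had 4.91 and 7.59 TPM in sh-PURB, against 6.13 and 10.5 TPM in sh-NC. The groups of ERO1A, AK4 and KDM3A overlapped, and their intervals reach from -1.14 (KDM3A) to 0.47 (AK4). Pseudogene rows of AK4 summed to 9.64% to 20.2% of its value, so AK4 is uncertain in the same way as BNIP3, while for the other 16 members with pseudogene rows the sum stayed under 3% of the gene.

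**Figure D2:**
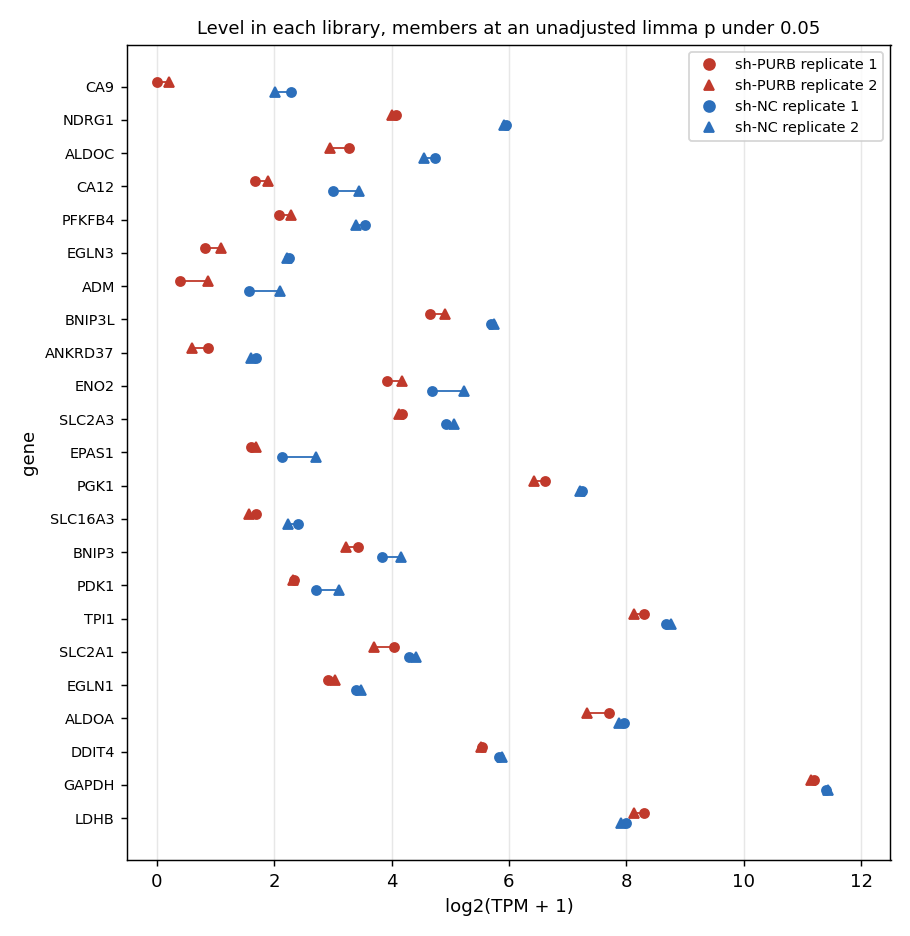
Level, as log2(TPM + 1), of the 23 genes at an unadjusted limma p under 0.05 in each library, sh-PURB in red above sh-NC in blue; lines join libraries of a group. The red points lie left of the blue for every gene but LDHB, at the bottom.

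Glucose enters through the SLC2A transporters, and SLC16A3 is a carrier through which lactate leaves. All 3 genes had both sh-PURB libraries below both sh-NC libraries, where 29.3% of all tested genes did so. SLC16A1, a more abundant monocarboxylate carrier outside the 42, lay higher, with 38.6 and 29.6 TPM in sh-PURB, against 24.98 and 21.4 TPM in sh-NC. The carrier SLC16A7 lay higher too, and neither passed adjustment in limma. SLC2A3, the high-affinity glucose transporter GLUT3, had 17.04 and 16.5 TPM in sh-PURB, against 29.4 and 32.5 TPM in sh-NC (54.2% of the sh-NC mean, limma adjusted p = 0.0712). SLC2A1, the widespread transporter GLUT1, had 15.5 and 11.98 TPM in sh-PURB, against 18.7 and 20.5 TPM in sh-NC (70.1%, limma adjusted p = 0.263). SLC16A3, the lactate exporter MCT4, had 2.23 and 1.96 TPM in sh-PURB, against 4.28 and 3.69 TPM in sh-NC (52.5%, limma adjusted p = 0.178). The exons of SLC16A3 overlap those of CSNK1D on the other strand, and in all 18 of the 42 members had such an overlap.

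In the upper, energy-consuming steps the largest differences lay in ALDOC and PFKFB4. The hexokinases, which trap glucose as its phosphate, did not separate the groups: HK1 had 31.8 and 23.1 TPM in sh-PURB, against 29.0003 and 27.998 TPM in sh-NC, and HK2 had 4.44 and 2.60 TPM in sh-PURB, against 3.02 and 5.06 TPM in sh-NC. Both pairs overlapped, and the 95% interval of the log2 difference ran from -0.52 to 0.38 for HK1 and from -0.95 to 0.64 for HK2. GPI, the next enzyme, had 41.8 and 36.3 TPM in sh-PURB, against 43.6 and 45.4 TPM in sh-NC (87.8%, limma adjusted p = 0.516).

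Phosphofructokinase commits the sugar to glycolysis and is made from a liver (PFKL), a muscle (PFKM) and a platelet (PFKP) type subunit. PFKL had 19.3 and 24.1 TPM in sh-PURB, against 24.7 and 28.3 TPM in sh-NC. PFKM was on the other side, with 26.6 and 29.7 TPM in sh-PURB, against 23.9 and 25.5 TPM in sh-NC. The groups of PFKP overlapped, with 20.1 and 14.0 TPM in sh-PURB, against 18.5 and 20.4 TPM in sh-NC. Limma adjusted p-values of the 3 subunits were 0.460 to 0.686. Its activator, fructose 2,6-bisphosphate, is set by the PFKFB enzymes. PFKFB4 (chromosome 3, 48517684 to 48562015, minus strand) had 3.22 and 3.89 TPM in sh-PURB, against 10.7 and 9.52 TPM in sh-NC. Its mean was 35.1% of sh-NC and its log2 difference was -1.29 (SE 0.16, limma adjusted p = 0.0600). PFKFB3, by contrast, had 5.15 and 4.03 TPM in sh-PURB, against 5.66 and 5.05 TPM in sh-NC, values that overlap.

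Aldolase splits the 6-carbon sugar, and its A type carried most of the message. ALDOC, the C type (chromosome 17, 28573115 to 28577264, minus strand), had 8.62 and 6.76 TPM in sh-PURB, against 25.7 and 22.4 TPM in sh-NC. Its mean was 3.13-fold lower, with a log2 difference of -1.53 (SE 0.16) and a limma adjusted p of 0.0525, just above the threshold. ALDOA had 209 and 160.0 TPM in sh-PURB, against 249 and 234 TPM in sh-NC (76.3%, limma adjusted p = 0.310). Triose phosphate isomerase, TPI1, had 314 and 278 TPM in sh-PURB, against 408 and 431 TPM in sh-NC (70.5%, limma adjusted p = 0.115). The groups of ALDOC, ALDOA and TPI1 did not overlap.

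In the lower, energy-yielding steps PGK1 and ENO2 stood lowest relative to sh-NC. GAPDH, the most abundant member in every library, had 2336 and 2261 TPM in sh-PURB, against 2713 and 2770.2 TPM in sh-NC. That is 83.9% of the sh-NC mean, with a log2 difference of -0.25 (95% interval -0.45 to -0.06, limma adjusted p = 0.227). The size of the GAPDH difference depended on how the libraries were scaled. It was -0.14 after median-ratio rescaling and -0.10 with TPM recomputed without the most abundant and mitochondrial genes. The interval above is for the main setting only. PGK1, which makes the first ATP of the pathway, had 97.4 and 84.7 TPM in sh-PURB, against 150.1 and 147 TPM in sh-NC (61.3%, limma adjusted p = 0.0831). The mutase PGAM1 had 111 and 79.8 TPM in sh-PURB, against 116 and 112 TPM in sh-NC (limma adjusted p = 0.518). GAPDH, PGK1 and PGAM1 each had both sh-PURB libraries below both sh-NC libraries, where 29.3% of all tested genes did so.

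Enolase has a common and a neuronal gene here. ENO2, the neuronal type, had 14.1 and 17.2 TPM in sh-PURB, against 24.7 and 36.8 TPM in sh-NC (50.9%, limma adjusted p = 0.169). ENO1, the common type, had 721 and 543 TPM in sh-PURB, against 704 and 677 TPM in sh-NC, and its groups overlapped. The pyruvate kinase gene PKM had 499 and 413 TPM in sh-PURB, against 469.6 and 425 TPM in sh-NC, also overlapping, with a 95% interval of the log2 difference of -0.30 to 0.34.

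Lactate dehydrogenase interconverts pyruvate and lactate, and its A and B subunits have a gene each. LDHA, a HIF target, had 303 and 198 TPM in sh-PURB, against 253 and 277 TPM in sh-NC, so the sh-PURB libraries lay on both sides of sh-NC. LDHB was the 1 member higher at an unadjusted limma p under 0.05, with 315 and 279 TPM in sh-PURB, against 253 and 238 TPM in sh-NC (121%, limma adjusted p = 0.311). PDK1, a kinase that shuts pyruvate out of the mitochondrial citrate cycle, had 4.04 and 4.01 TPM in sh-PURB, against 5.52 and 7.55 TPM in sh-NC (61.6%, limma adjusted p = 0.265). PDK3, a second such kinase, had 0.988 and 1.90 TPM in sh-PURB, against 1.34 and 2.995 TPM in sh-NC, and its groups overlapped.

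**Figure D3:**
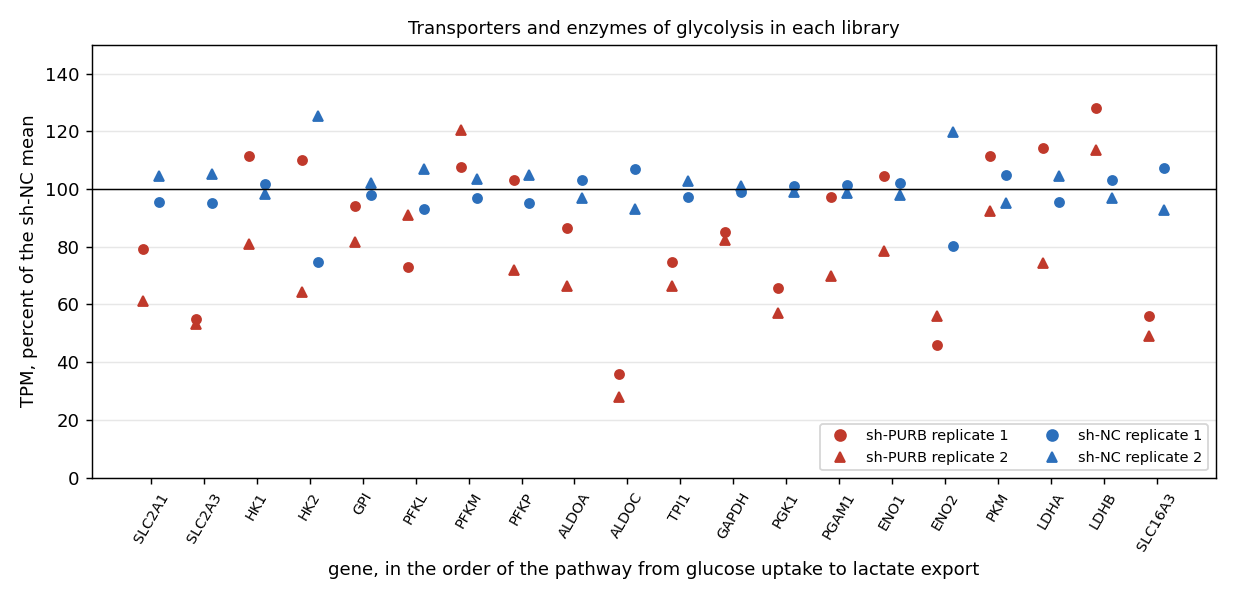
TPM of glucose transporters, glycolytic enzymes and the lactate exporter SLC16A3 in each library as a percentage of the sh-NC mean, in pathway order, with sh-PURB (red) left of sh-NC (blue). ALDOC is lowest, and for HK1, HK2, PFKP, ENO1, PKM and LDHA the groups overlap.

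The 17 glycolytic enzymes together held 5071 and 4449 TPM in sh-PURB, against 5508 and 5524 TPM in sh-NC, which is 86.3% of the sh-NC mean. As a share of protein-coding TPM they held 2.05% and 1.77% in sh-PURB, against 2.18% and 2.10% in sh-NC. Without GAPDH the remaining 16 held 1.105% and 0.873% in sh-PURB, against 1.105% and 1.05% in sh-NC. Exact two-sided permutation tests gave p = 0.333 for the share of all 17 and p = 0.667 without GAPDH, where 0.333 is the smallest p possible. The spread between the sh-PURB libraries was the wider one, with a median absolute log2(TPM + 1) gap of 0.27 over the members, against 0.13 in sh-NC. In direction, 28 of the 42 members were higher in sh-PURB replicate 1 than in sh-PURB replicate 2, where 38.8% of all tested genes were. For sh-NC 19 members were higher in replicate 1 than in replicate 2, where 39.0% of all tested genes were. Over the 42 members the log2 difference and the mean level had a rank correlation of 0.47, the more abundant genes lying closer to 0. That figure is across genes of the same 4 libraries, and differences of low genes are compressed by the pseudocount.

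Shares of isozymes within a library do not depend on how libraries are scaled. ALDOC made up 3.97% and 4.05% of aldolase A and C message in sh-PURB, against 9.37% and 8.73% in sh-NC. PFKFB4 made up 38.5% and 49.1% of PFKFB3 and PFKFB4 in sh-PURB, against 65.4% and 65.3% in sh-NC, so PFKFB3 was the larger of the pair in both sh-PURB libraries and PFKFB4 in both sh-NC libraries. Groups did not overlap for either share.

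SLC2A3 held 52.4% and 57.9% of SLC2A1 and SLC2A3 in sh-PURB, against 61.1% and 61.4% in sh-NC. ENO2 held 1.92% and 3.07% of ENO1 and ENO2 in sh-PURB, against 3.39% and 5.16% in sh-NC. The enolase ENO3, which lay higher in sh-PURB, is not part of that sum. LDHA held 49.1% and 41.5% of LDHA and LDHB in sh-PURB, against 50.01% and 53.8% in sh-NC. For the SLC2A3, ENO2 and LDHA shares each sh-PURB value was under each sh-NC value. Of the 3 phosphofructokinase subunits PFKM held 40.3% and 43.8% in sh-PURB, against 35.6% and 34.4% in sh-NC, and PFKL held 29.3% and 35.5% in sh-PURB, against 36.8% and 38.1% in sh-NC. For HK2, PDK1 and PFKP the groups overlapped. Exact two-sided permutation tests gave p = 0.333, the smallest possible, for the 7 shares whose groups did not overlap and 0.667 to 1.0 for the other 3.

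**Figure D4:**
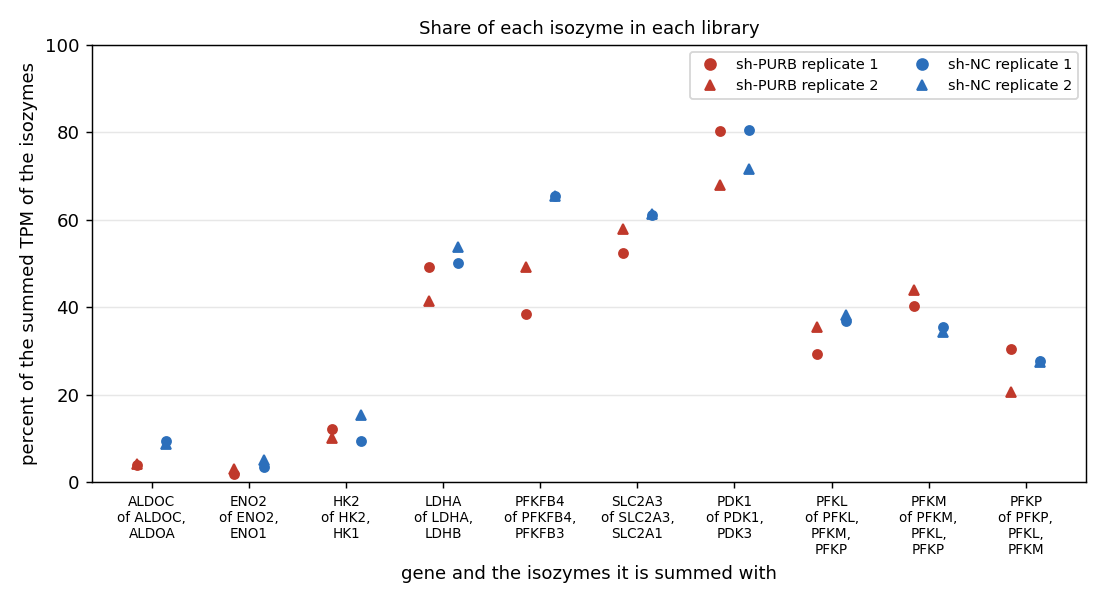
Percent of the summed TPM of a set of isozymes held by the named gene, in each library, sh-PURB (red) left of sh-NC (blue). PFKFB4 holds 38.5% and 49.1% in sh-PURB and 65.4% and 65.3% in sh-NC, the widest gap among the 10 shares.

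The HIF factors differed among themselves. HIF1A mRNA had 72.6 and 67.3 TPM in sh-PURB, against 68.6 and 68.2 TPM in sh-NC, with overlapping groups and a 95% interval of the log2 difference of -0.22 to 0.28. EPAS1, which encodes HIF-2alpha, had 2.04 and 2.22 TPM in sh-PURB, against 3.40 and 5.54 TPM in sh-NC. Its mean was 47.6% of sh-NC and the groups did not overlap, with a limma adjusted p of 0.245. The partner subunit ARNT had 7.29 and 10.9 TPM in sh-PURB, against 10.9 and 10.3 TPM in sh-NC. VHL, the ubiquitin ligase subunit that recognises hydroxylated HIF, had 9.90 and 7.56 TPM in sh-PURB, against 11.2 and 8.98 TPM in sh-NC. Both of these overlapped. HIF protein was not measured.

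Promoter sequence was looked at because HIF binds a short core, ACGTG or GCGTG, in the genes it controls. RefSeq promoter sequences (GRCh38.p14) were found for 37 members, and the 250 bases before the RefSeq start were searched on both strands. ACGTG occurred in 16 of the 37 (43.2%), against 23.3% of the promoters of 10258 tested genes, and either core in 25 (67.6%), against 57.4%. The list was made of HIF targets and glycolysis genes, so its excess over all genes can come from that choice and is not a result about the knockdown. Of 19 members that were lower at an unadjusted limma p under 0.05, 10 held ACGTG, and of the other 18 members 6 did. Whether ACGTG goes with lower values was not tested. A match is a description of letters and not a binding site. ACGTG is also part of CACGTG, the E-box bound by MYC and its relatives. The 6 promoters shown belong to the members with the smallest limma p among those whose promoter could be shown. NDRG1, BNIP3L and SLC2A3 also had small p-values and are not shown. The RefSeq start can lie far from the outermost annotated start of the gene: the distance was 511700 bases for EGLN3, 193509 for PGK1 and 5212 for PFKFB4, 72 to 369 for ALDOC, CA9 and CA12, and over 1000 for 10 of the 37 members. Capitals mark every match to either core on either strand:
ALDOC, chr17:28576896-28577145, minus strand: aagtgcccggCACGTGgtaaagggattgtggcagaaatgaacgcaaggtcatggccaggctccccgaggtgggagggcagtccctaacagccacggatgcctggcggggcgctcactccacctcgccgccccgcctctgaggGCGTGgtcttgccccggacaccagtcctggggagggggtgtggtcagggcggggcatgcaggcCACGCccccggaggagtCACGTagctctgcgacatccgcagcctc
CA9, chr9:35673678-35673927, plus strand: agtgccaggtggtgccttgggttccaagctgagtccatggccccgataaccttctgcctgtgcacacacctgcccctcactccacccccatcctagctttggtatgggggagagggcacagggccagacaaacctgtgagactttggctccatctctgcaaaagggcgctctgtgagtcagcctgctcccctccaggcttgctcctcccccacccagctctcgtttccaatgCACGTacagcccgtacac
PFKFB4, chr3:48556804-48557053, minus strand: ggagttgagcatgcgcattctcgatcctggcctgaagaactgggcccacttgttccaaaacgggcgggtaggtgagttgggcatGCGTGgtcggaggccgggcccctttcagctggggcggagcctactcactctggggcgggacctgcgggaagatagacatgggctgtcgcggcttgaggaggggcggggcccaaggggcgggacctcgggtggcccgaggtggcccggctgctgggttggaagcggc
CA12, chr15:63381847-63382096, minus strand: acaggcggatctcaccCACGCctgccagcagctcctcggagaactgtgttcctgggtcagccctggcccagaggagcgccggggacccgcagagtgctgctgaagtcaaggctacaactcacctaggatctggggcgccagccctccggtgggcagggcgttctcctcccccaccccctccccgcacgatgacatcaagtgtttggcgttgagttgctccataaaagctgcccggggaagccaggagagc
PGK1, chrX:78103998-78104247, plus strand: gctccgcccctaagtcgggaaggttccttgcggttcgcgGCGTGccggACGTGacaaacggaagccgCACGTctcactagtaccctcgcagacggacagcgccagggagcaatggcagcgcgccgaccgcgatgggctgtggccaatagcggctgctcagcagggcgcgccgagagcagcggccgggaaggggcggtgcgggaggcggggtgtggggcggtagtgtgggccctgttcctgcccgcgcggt
EGLN3, chr14:33951075-33951324, minus strand: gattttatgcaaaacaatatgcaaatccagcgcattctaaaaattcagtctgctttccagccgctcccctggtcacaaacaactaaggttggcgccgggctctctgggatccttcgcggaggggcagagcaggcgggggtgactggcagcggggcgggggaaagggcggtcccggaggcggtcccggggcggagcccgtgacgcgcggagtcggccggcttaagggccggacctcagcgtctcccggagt
ALDOC held 3 matches to ACGTG, 2 of them the overlapping strands of 1 CACGTG, and 2 to GCGTG, and PGK1 held 2 to ACGTG and 1 to GCGTG. CA9 had 1 ACGTG match, beginning 18 bases before the start. PFKFB4 and CA12 had 1 GCGTG match each and no ACGTG, and EGLN3 had neither core in this window.

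Genes of neighbouring pathways were taken from lists outside the 42. These lists were chosen with earlier results of these data known and rest on the same libraries, so they are no independent check. Of further HIF targets most lay below 0: of 43 listed 34 passed the filter, 30 of them were below 0, and the median log2 difference was -0.42. At an unadjusted limma p under 0.05 there were 15 lower and 1 higher, and 0 passed adjustment in limma. Over all tested genes 58.4% were below 0, and 9.53% were lower and 5.77% higher at that p; the counts of the other lists stand beside the same shares. The lipid droplet protein PLIN2 had 11.2 and 9.36 TPM in sh-PURB, against 30.4 and 39.3 TPM in sh-NC (limma adjusted p = 0.0525). The collagen prolyl hydroxylases P4HA1 and P4HA2 stood at 58.3% and 56.6% of sh-NC and the lysyl oxidase LOXL2 at 57.0%, with limma adjusted p-values of 0.0831 to 0.0887. MIR210HG, the host transcript of the hypoxia microRNA miR-210, had 0.904 and 1.25 TPM in sh-PURB, against 1.90 and 2.97 TPM in sh-NC (limma adjusted p = 0.282). MIR210HG reached 1 TPM in only 1 sh-PURB library and needed sh-NC to pass the filter.

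Isozymes and carriers of glycolysis outside the 42 did not lie lower. Of 29 listed 18 passed the filter, with 9 below 0 and 9 above and a median log2 difference of 0.04, and 0 lower and 4 higher at an unadjusted limma p under 0.05 (0 after adjustment). The muscle enolase ENO3 had 27.0 and 41.5 TPM in sh-PURB, against 14.3 and 13.7 TPM in sh-NC (2.45 times sh-NC, limma adjusted p = 0.102). Among the monocarboxylate carriers SLC16A7 had 5.23 and 5.21 TPM in sh-PURB, against 1.86 and 2.03 TPM in sh-NC, and SLC16A1 had 38.6 and 29.6 TPM in sh-PURB, against 24.98 and 21.4 TPM in sh-NC. Both lay opposite to SLC16A3, without passing adjustment (limma adjusted p of 0.0809 and 0.255). TIGAR, a fructose 2,6-bisphosphatase, was at 1.81 times sh-NC (limma adjusted p = 0.210).

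For pyruvate entry into mitochondria, all 12 listed genes passed the filter, with 4 lower and 1 higher at an unadjusted limma p under 0.05 and 0 after adjustment. The pyruvate dehydrogenase kinase PDK4 had 0.482 and 0.989 TPM in sh-PURB, against 2.50 and 3.71 TPM in sh-NC (limma adjusted p = 0.139). It passed the filter only through sh-NC, and without it 3 of 11 were lower, while PDK2 stood at 68.8% of sh-NC. The carrier subunit MPC1 had 9.65 and 9.58 TPM in sh-PURB, against 6.58 and 5.66 TPM in sh-NC (limma adjusted p = 0.168). The phosphatase PDP1, which opposes the kinases, stood at 68.6% of sh-NC.

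In the pentose phosphate pathway 2 of 10 tested genes were lower and 0 higher at an unadjusted limma p under 0.05, and 0 passed adjustment. H6PD, an enzyme of the endoplasmic reticulum, stood at 43.8% of sh-NC (limma adjusted p = 0.225). Of the gluconeogenesis list 4 of 8 were tested, and its carboxykinases lay on opposite sides. PCK2, the mitochondrial form, had 17.3 and 19.9 TPM in sh-PURB, against 8.10 and 7.83 TPM in sh-NC, and PCK1, the cytosolic form, had 0.267 and 0.798 TPM in sh-PURB, against 3.88 and 6.11 TPM in sh-NC. Their limma adjusted p-values were 0.0552 and 0.0831, but PCK1 passed the filter only through sh-NC. Of 13 tested genes of oxygen sensing and HIF control 2 were lower and 0 higher at an unadjusted limma p under 0.05, with 0 after adjustment. They were the ubiquitin ligase SIAH1 at 66.6% of sh-NC and the coactivator CREBBP at 65.0%, while HIF1AN, the asparagine hydroxylase of HIF, had 6.38 and 6.22 TPM in sh-PURB, against 7.38 and 8.21 TPM in sh-NC (limma adjusted p = 0.433).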

How the data were processed

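The authors deposited TPM per gene symbol for 2 sh-PURB and 2 sh-NC libraries of ribosome-depleted total RNA (TRIzol, TruSeq chemistry, per the labels' protocols). Named without roles in the submitters' processing notes are the builds GRCm38 and GRCh38 and the tools DESeq2, sleuth, kallisto 0.44.0 and bcl2fastq 2.19; strand setting and annotation are not given in the sources used here. All 4 single-library tables equalled the table of all samples. A row without a name (0.921% to 1.66% of a library) was left out. Genes with at least 1 TPM in at least 2 libraries (14269) were compared as log2(TPM + 1) in limma 3.58.1 (R 4.3.3; intensity trend; 2 residual and 2.92 prior degrees of freedom; Benjamini-Hochberg adjustment, threshold 0.05). This scale understates the change of low genes, and TPM values are parts of a fixed total, so abundant RNAs shift the rest. Means are given as ratios of mean TPM. The steps were tested on simulated data. Positions and gene types came from GENCODE v29 (GRCh38).

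Samples were grouped by title. The members, lists and tests were chosen with earlier results of these data known. Values in every library are given for members at an unadjusted p under 0.05, the HIF factors and the isozymes; from other lists up to 4 genes with the smallest p are named. A gene that this rule would name is not reported here. ARHGEF39, CSNK1D, UFSP2, BNIP3P4 and the other HIF targets with values were named after their values were seen, and counts without genes that passed the filter only through sh-NC were added then too. Alternatives were protein-coding genes only, a replicate block, limma without trend, leaving out each library, a filter at 5 TPM or none, pseudocounts of 0.1 and 0.5, median-ratio rescaling, and TPM recomputed after removal of mitochondrial genes and of the most abundant ones. Figures were drawn with matplotlib 3.10.9.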

Additional observations from a re-analysis of the deposited data

How the results depend on the processing

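With 2 libraries a group and no read depth in TPM, counts of calls followed the test more than single values did. Over all genes limma called 41, against 0 with a pseudocount of 0.1, with no filter or without the trend, 121 with the filter at 5 TPM, 84 after median-ratio rescaling and 416 with protein-coding genes only; leaving out a library gave 0 to 0 calls. Members called were 1 in the main setting, 0 with a pseudocount of 0.1, no filter or no trend (at an unadjusted p under 0.05 there were 23, 21 and 19), 5 with the filter at 5 TPM and 11 with protein-coding genes only, and 0 to 0 without a library, where 13 to 20 members were at an unadjusted p under 0.05 (23 in the main setting). The 13 were those without sh-NC replicate 2; of the 20 without sh-PURB replicate 1, 16 were among the 23 and PFKP, PGAM1, ENO1 and LDHA were not.

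The median log2 difference of the members was -0.35, against -0.39 and -0.38 with pseudocounts of 0.1 and 0.5, -0.28 with the filter at 5 TPM, -0.27 after median-ratio rescaling, -0.24 with recomputed TPM, -0.31 with protein-coding genes only and -0.47 to -0.31 without a library. Recomputing moved the median of all genes to 0.08 in place of -0.06, with 43.3% of its 60 calls higher (29.3% in the main setting). At an unadjusted limma p under 0.05, 18 members were lower and 0 higher after median-ratio rescaling. With recomputed TPM 17 were lower and 2 higher (22 and 1 in the main setting). SLC2A1, ALDOA, GAPDH and DDIT4 were under 0.05 in neither. Members with both sh-PURB libraries below both sh-NC libraries numbered 22 and 21 in those settings (25 in the main setting). The median of all genes was 0.03 after median-ratio rescaling. Shares of all tested genes at an unadjusted p, or with non-overlapping groups, are given for the main setting only. The member counts in other settings therefore stand without their own background. PURB passed the threshold with protein-coding genes only (difference -0.91, limma adjusted p = 0.0309). The members called in that setting include CA9 and ADM, which passed the filter only through sh-NC, and EGLN3, which also needed sh-NC.

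The replicate numbers are shared by title only, and the deviations of same-numbered libraries correlated at 0.19. With the replicate block limma called 118 genes and 2 members, NDRG1 and ALDOC.

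Of the 42 members 31 kept their direction in the settings that tested them, 25 of them in all 13 and 6 in 12, since the filter at 5 TPM left those 6 out. The others were those below. HK1 was at 0.036 after median-ratio rescaling. With recomputed TPM HK1 was at 0.078, ENO1 at 0.011 and LDHA at 0.039. Leaving out a library gave -0.29 to 0.15 for HK1, -0.45 to 0.14 for HK2, -0.45 to 0.044 for PFKP, -0.35 to 0.062 for ENO1, -0.11 to 0.16 for PKM and -0.42 to 0.19 for LDHA. It gave -0.74 to 0.035 for PDK3, -0.023 to 0.084 for HIF1A, -0.48 to 0.037 for ARNT, -0.19 to 0.20 for AK4 and -0.048 to 0.23 for ERO1A. The cause of these changes was not tested. None of these 11 was called in any setting. Isozyme shares do not depend on scaling, pseudocount or filter.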

Other observations

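GAPDH, TPI1 and ENO2 lie close together on chromosome 12, between 6533927 and 6923698 (GRCh38), a region looked at after their values were seen. Of 21 tested genes inside it 12 had both sh-PURB libraries below both sh-NC libraries and 1 had them above, with a median log2(TPM + 1) difference of -0.25. Without GAPDH, TPI1 and ENO2 the counts were 9 and 1 of 18 and the median was -0.21, against 29.3% below, 18.6% above and a median of -0.06 over all tested genes.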
